A study of Bos taurus with 12 samples.

Results

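The 10 genes described here are ligands and receptors of the activin and myostatin pathway and its follistatin-type antagonists, measured in the right ventricle of cattle living at high altitude. They were chosen by gene symbol, 10 of the 24616 genes in the deposited table, and none of the 10 symbols occurred more than once. They comprise the secreted antagonists FSTL3 and FST and their relative FSTL1, the ligand subunits INHBA and INHBB and the ligand MSTN, the type II receptors ACVR2A and ACVR2B, and the type I receptors ACVR1B and ACVR1. The strong rise of FSTL3 at high pressure was already known when the 10 were put together, so its values against the low-pressure animals are given as a description without a test.

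Libraries came from right ventricle, which drives blood through the lungs, of 12 Angus steers of wild-type genotype, 1 library per animal. All 12 animals, including the low-pressure ones, lived under chronic hypoxia at 2170 m (7120 ft); they were castrated at 6 to 8 months and slaughtered at 13 to 15 months of age. Repeated right heart catheterization and clinical signs had sorted them into 6 with a low pulmonary arterial pressure (low PAP), 3 with pulmonary hypertension and no signs of failure (PH-healthy) and 3 with pulmonary hypertension and right heart failure (PH-failure). No animal kept at low elevation is among the 12, and the pressure of each animal was not used here.

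Activins and myostatin are dimeric relatives of TGF-beta. They bind a type II receptor on the cell surface, which then activates a type I receptor, and the pair phosphorylates SMAD2 and SMAD3, which act on genes in the nucleus. Follistatin and FSTL3 wrap around the ligand outside the cell and keep it from its receptors. Myostatin restrains skeletal muscle growth, activins are known for their part in fibrosis, and the antagonists FSTL3 and FSTL1 are known in rodent and human heart as proteins whose levels rise with injury or load.

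The libraries held 12997085 (PH-failure replicate 1) to 27178206 (low-PAP replicate 5) exon reads, recovered from the steps between RPKM values; RPKM is a read number per length of exon and per mapped reads of the library. A gene was tested if 3 or more libraries reached 1 RPKM, which left 11374 genes whose median read number in a library was 370. PH-failure libraries resembled each other less (Spearman's correlation across genes 0.932 to 0.960) than PH-healthy ones (0.974 to 0.981). Cardiac muscle markers summed to 37184 to 64513 RPKM over the 12 libraries, lowest in PH-failure replicate 3 and 47544 or more in the other 11. The 3 atrial markers in the table (MYL7, MYL4 and NPPA) were present too, at 3085 to 6775 RPKM in low PAP, 539 to 876 in PH-healthy and 425 to 1837 in PH-failure, without overlap of either PH group with low PAP, and 1 of the 3 was called lower in each. Markers of skeletal muscle summed to 1.92 to 5.57 RPKM, with MYH1, TNNI2 and MYLPF at 0 in at least 1 library. In bulk tissue, a gene expressed in fewer cells and one expressed at a lower level per cell cannot be told apart. The labels put the libraries in a 55 or a 56 series, which coincides with lanes 4 and 5 in the file header; low PAP had 3 libraries in each, PH-healthy 1 in series 56, and PH-failure 2 in series 56.

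Over all 12 libraries FSTL1 was the most abundant of the 10, at a mean of 60.05 RPKM, followed by FSTL3 at 15.0, ACVR1 at 10.5, ACVR2A at 3.38 and ACVR1B at 2.03 RPKM. These 5 passed the filter and were tested. The other 5 fell under it: INHBB averaged 0.629, FST 0.480, INHBA 0.308, ACVR2B 0.211 and MSTN 0.0156 RPKM. The means of FSTL3 and ACVR1 exchange places by group, since FSTL3 lay below every ACVR1 value in low PAP and above every ACVR1 value in both PH groups. In that order, FSTL1 overlapped FSTL3, ACVR2A overlapped ACVR1B, and each of ACVR1B, INHBB, FST and INHBA overlapped the next, over the 12 libraries. ACVR1 lay above every value of ACVR2A, and MSTN below every value of ACVR2B. No member overlaps another gene of the table, and the gene nearest to FSTL3, PRSS57, at a distance of 992 bases, averaged 0.0141 RPKM.

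**Figure D1:**
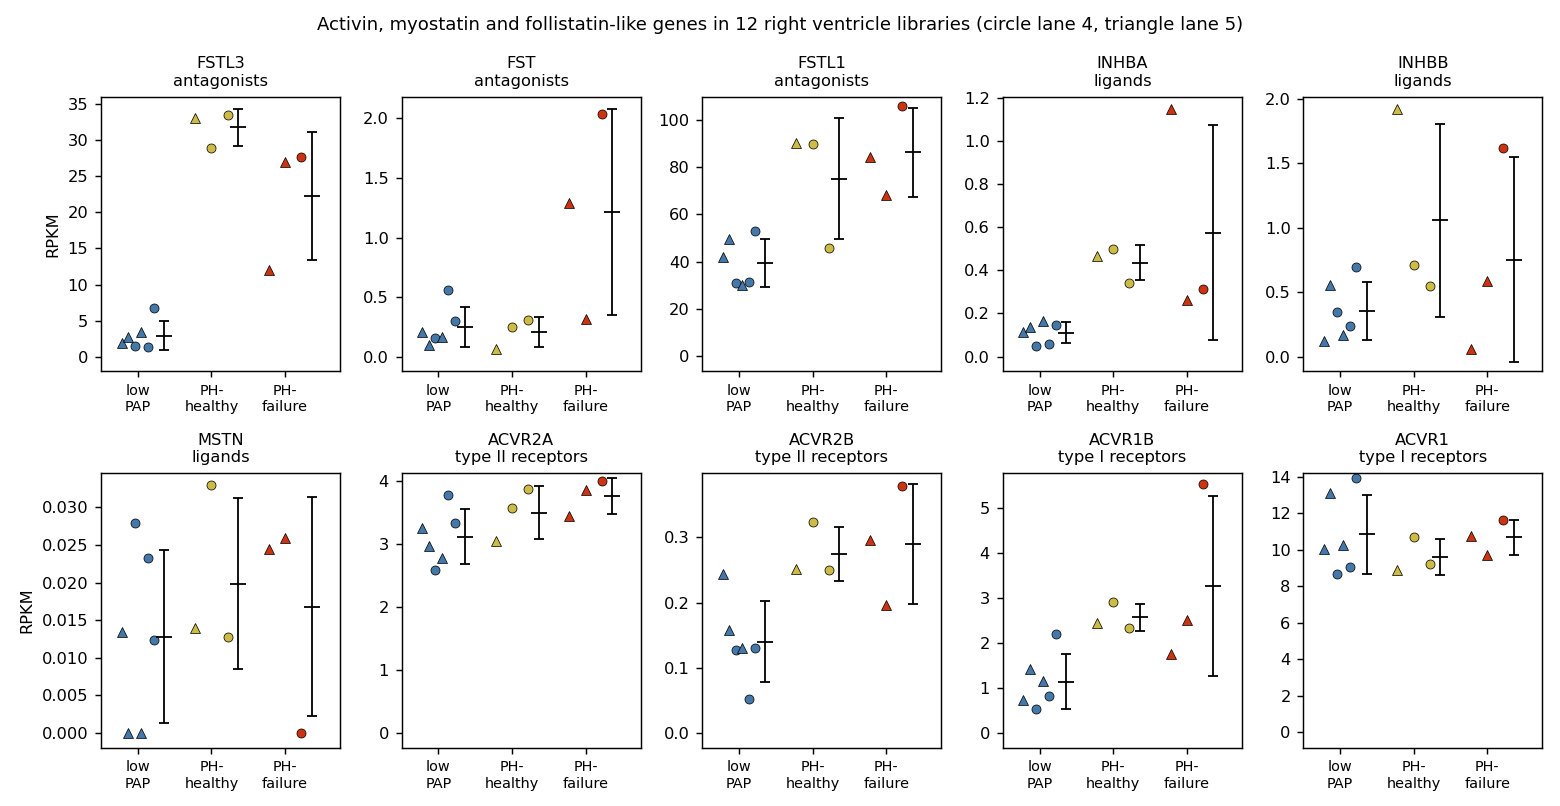
RPKM of the 10 genes in each of the 12 libraries, 1 panel per gene with its own linear axis; points are libraries by group and bars are the mean ± SD. FSTL3 lies at 1.30 to 6.71 RPKM in low PAP and at 11.97 to 33.4 RPKM in the 6 PH libraries, while the 3 groups overlap for ACVR1; for INHBB in PH-failure the mean minus the SD falls below 0.

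FSTL3 (follistatin-like 3, ENSBTAG00000003018, chromosome 7, 44896886 to 44903223 in the coordinates of the table) is a secreted glycoprotein that binds activins and myostatin. In low PAP it ranged from 1.30 RPKM through a median of 2.33 to 6.71 RPKM, the last in low-PAP replicate 6. PH-healthy replicates 1, 2 and 3 had 33.1, 28.8 and 33.4 RPKM, and PH-failure replicates 1, 2 and 3 had 11.97, 27.0 and 27.7 RPKM. All 6 PH libraries lay above all 6 low-PAP libraries, and all 3 PH-failure libraries lay below all 3 PH-healthy ones. Group means were 2.94 ± 2.01 (SD, n = 6), 31.8 ± 2.54 (n = 3) and 22.2 ± 8.88 RPKM (n = 3) in low PAP, PH-healthy and PH-failure, ratios to low PAP of 10.8 and 7.56.

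On the log2(RPKM + 1) scale, on which low genes show too small a change, FSTL3 differed from low PAP by 2.60 ± 0.35 (SE) in PH-failure and by 3.18 ± 0.35 in PH-healthy. These were the 10th and 6th highest differences of the 11374 genes tested. The spread in PH-failure came from replicate 1, the library of lowest depth, whose 345 FSTL3 reads still gave a value above the 6.71 RPKM of low-PAP replicate 6. Within series 56 FSTL3 was at a mean of 2.70 RPKM in low PAP, 33.1 in the 1 PH-healthy library and a mean of 19.5 in PH-failure. Within series 55 it was at means of 3.18 in low PAP and 31.1 in PH-healthy, and 27.7 RPKM in the 1 PH-failure library. The order of the groups was the same in both, but in each series 1 group is a single library.

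FSTL3 was lower in PH-failure than in PH-healthy by 0.58 ± 0.40 on the log2 scale, a difference that did not pass the test (limma adjusted p = 0.9995). Of all genes tested, 2.13% were lower without overlap in PH-failure than in PH-healthy. Against low PAP, 18.6% were higher without overlap in PH-failure and 25% in PH-healthy. Leaving out 1 library at a time moved the FSTL3 difference between -0.78 and -0.21.

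FST (follistatin, ENSBTAG00000003329, chromosome 20, 25588641 to 25594057) is the founding member of the antagonist family and was much scarcer than FSTL3. In low PAP it ranged from 0.103 RPKM through a median of 0.185 to 0.562 RPKM, from 4 to 22 reads per library. PH-healthy replicates 1, 2 and 3 had 0.0613, 0.254 and 0.309 RPKM, from 2, 7 and 11 reads, and PH-failure replicates had 1.29, 0.314 and 2.04 RPKM, from 24, 11 and 70 reads. The high values were those of PH-failure replicates 1 and 3, while replicate 2 lay within the low-PAP range and, on the same 11 reads, just above PH-healthy replicate 3; 3.61% of genes tested were higher without overlap in PH-failure than in PH-healthy. Its mean in PH-failure was 1.22 ± 0.866 RPKM (SD, n = 3) against 0.248 ± 0.167 in low PAP (n = 6) and 0.208 ± 0.130 in PH-healthy (n = 3).

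Because FST and 4 other members fell under the RPKM filter, they were also fitted by limma-voom on the recovered reads of 15246 genes, a fit chosen after the values were seen. In it, FST was higher in PH-failure than in low PAP by 1.80 ± 0.61 on the log2 scale (limma-voom adjusted p = 0.0485). That call was lost on leaving out any 1 of low-PAP replicates 1, 2, 3, 4 and 6, PH-healthy replicates 2 and 3 and PH-failure replicates 1 and 3 (adjusted p 0.0538 to 0.256, the last without PH-failure replicate 3). For PH-healthy against low PAP the FST difference was -0.48 ± 0.80 (adjusted p = 0.694). Between PH-failure and PH-healthy it was 2.27 ± 0.80, with an unadjusted p of 0.0127 and a limma-voom adjusted p of 0.9999.

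FSTL1 (follistatin-like 1, ENSBTAG00000022155, chromosome 1, 65742632 to 65802423) shares the follistatin domain but is not a strong activin inhibitor; it is a secreted protein made largely by mesenchymal cells. It ranged in low PAP from 29.9 RPKM through a median of 36.6 to 52.8 RPKM. PH-failure replicates 1, 2 and 3 had 84.4, 68.4 and 105.9 RPKM, all above low PAP. PH-healthy replicates had 90.0, 89.7 and 45.7 RPKM, so replicate 3 lay within the low-PAP range and the other 2 above it.

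FSTL1 rose in PH-failure by 1.12 ± 0.25 on the log2 scale, from 39.5 ± 10.2 (SD, n = 6) to 86.2 ± 18.8 RPKM (n = 3; limma adjusted p = 0.00779). It rose in PH-healthy by 0.88 ± 0.25, to 75.1 ± 25.5 RPKM (limma adjusted p = 0.0179). The PH-healthy call was lost without PH-healthy replicate 1 (adjusted p = 0.0912) or 2 (0.0839) and with the replicate number as a block (0.0747). PH-failure and PH-healthy differed by 0.24 on this scale (limma adjusted p = 0.9995). Within series 56 FSTL1 was at 40.6, 90.0 (1 library) and 76.4 RPKM in low PAP, PH-healthy and PH-failure. Within series 55 it was at 38.3, 67.7 and 105.9 RPKM (the last from 1 library).

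Markers of several cell types moved in the same libraries. Beside the counts that follow, 28% of all genes tested were called higher in PH-failure and 26.6% in PH-healthy, and 5.79% and 8.15% lower. The 8 fibroblast markers, of which 6 were higher in PH-failure and 5 in PH-healthy, summed to 458 to 685 RPKM in low PAP, 547 to 1099 in PH-healthy and 827 to 1352 in PH-failure. PH-healthy replicate 3, lowest of the PH libraries in FSTL1, was also the lowest of them in fibroblast markers, at 547 RPKM. At the top the order differed. PH-failure replicate 1 had the highest fibroblast sum, 1352 RPKM, with FSTL1 at 84.4 RPKM. PH-failure replicate 3 had the highest FSTL1, 105.9 RPKM, with a fibroblast sum of 851 RPKM. DCN, which is on the fibroblast list, averaged 274, 222 and 279 RPKM in low PAP, PH-healthy and PH-failure. Smooth muscle markers (MYH11, ACTA2, TAGLN, CNN1, MYLK and DES), 5 of 6 higher in PH-failure and 2 in PH-healthy, summed to 1214 to 1592, 2561 to 3159 and 2590 to 4677 RPKM in the same order of groups. TAGLN averaged 49.6 RPKM over the 12 libraries. The part of each other gene in this sum was not counted, so the sum may follow a single abundant gene. Endothelial markers, 4 of 6 higher in PH-failure and 3 in PH-healthy, summed to 57.5 to 112, 113 to 124 and 123 to 179 RPKM. Macrophage markers, also 4 of 6 and 3 of 6 higher, summed to 16.9 to 28.8, 25.3 to 44.2 and 31.4 to 87.3 RPKM. Atrial muscle markers moved the other way, with the sums given above, 3085 or more in each low-PAP and 1837 or less in each PH library. Of 5 T and NK cell markers tested, 1 was lower in each PH group. Cardiac muscle markers had 2 of 6 lower in PH-failure, and 1 higher and 1 lower in PH-healthy. The part of all these in the values of FSTL3, FSTL1 and ACVR1B was not tested. Adipocyte, red blood cell and macrophage markers stood highest in PH-failure replicate 3, at 1563, 70.0 and 87.3 RPKM, and cardiac muscle markers lowest, at 37184 RPKM, and that library was also the highest of its group in 8 of the 10 members.

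INHBA (ENSBTAG00000002912, chromosome 4, 79986253 to 79997754) encodes the beta A subunit, 2 of which form activin A. It ranged in low PAP from 0.0469 RPKM through a median of 0.125 to 0.166 RPKM, from 2 to 8 reads. PH-healthy replicates 1, 2 and 3 had 0.467, 0.497 and 0.342 RPKM, from 20, 18 and 16 reads, and PH-failure replicates had 1.15, 0.261 and 0.311 RPKM, from 28, 12 and 14 reads. Every PH library lay above every low-PAP library, on few reads, and PH-failure replicate 1 stood far above the rest of its group. Mean levels were 0.111 ± 0.0483, 0.436 ± 0.0824 and 0.575 ± 0.50 RPKM (SD; n = 6, 3 and 3) in low PAP, PH-healthy and PH-failure.

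On recovered reads INHBA was higher than in low PAP by 1.65 ± 0.48 in PH-failure (limma-voom adjusted p = 0.0262) and by 1.76 ± 0.48 in PH-healthy (adjusted p = 0.0169). The PH-failure call was lost without low-PAP replicate 3 (adjusted p = 0.0572), low-PAP replicate 5 (0.0566) or PH-failure replicate 1 (0.0662). The PH-healthy call was lost without PH-healthy replicate 1 (0.0603) or 2 (0.0546), and limma on the RPKM scale without the filter called INHBA in PH-failure (adjusted p = 0.0337) and not in PH-healthy (0.0685). Leaving out 1 library kept a positive difference, between 1.15 and 1.96 in PH-failure and between 1.59 and 1.90 in PH-healthy.

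INHBB (ENSBTAG00000032017, chromosome 2, 72523470 to 72527172) encodes the beta B subunit of activin B. It ranged in low PAP from 0.121 through a median of 0.291 to 0.694 RPKM. PH-healthy replicates had 1.92, 0.706 and 0.546 RPKM, and PH-failure replicates had 0.0553, 0.585 and 1.61 RPKM, the first from a single read. The groups overlapped, and neither difference from low PAP passed the test on recovered reads (0.48 ± 0.79, limma-voom adjusted p = 0.691 in PH-failure; 1.34 ± 0.67, adjusted p = 0.154 in PH-healthy).

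MSTN (myostatin, ENSBTAG00000011808, chromosome 2, 6213565 to 6220196) was close to the limit of counting, with 0 to 2 reads in each library and 13 reads over all 12. Low-PAP replicates 2 and 4 and PH-failure replicate 3 had no read, and a count of 0 allows up to 3 reads. At this depth no difference between the groups in myostatin RNA was detectable.

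Summed per library, the antagonists FSTL3 and FST exceeded the ligand RNAs INHBA, INHBB and MSTN in all 12 libraries. The ratio ranged from 3.98 through a median of 7.05 to 10.8 in low PAP, where the ligands had 10 to 33 reads per library. It was 13.8, 23.5 and 37.4 in PH-healthy replicates 1, 2 and 3, all above low PAP. PH-failure replicates 2 and 3 had 31.3 and 15.4, while replicate 1 had 10.78, just under the 10.84 of low-PAP replicate 4. Ligand RNA was itself 0.248 to 0.851 RPKM in low PAP, 0.901 to 2.40 in PH-healthy and 0.872 to 1.92 RPKM in PH-failure, so both terms of the ratio were higher in the PH libraries. FSTL3 was the larger term of the numerator in all 12 libraries, at 2.31 times FST or more, so the ratio carries the difference in FSTL3 described above, and it was not tested. The ratio also depends on which ligands are summed. GDF11, for one, was left out, at means of 0.151, 0.863 and 0.749 RPKM in low PAP, PH-healthy and PH-failure.

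**Figure D2:**
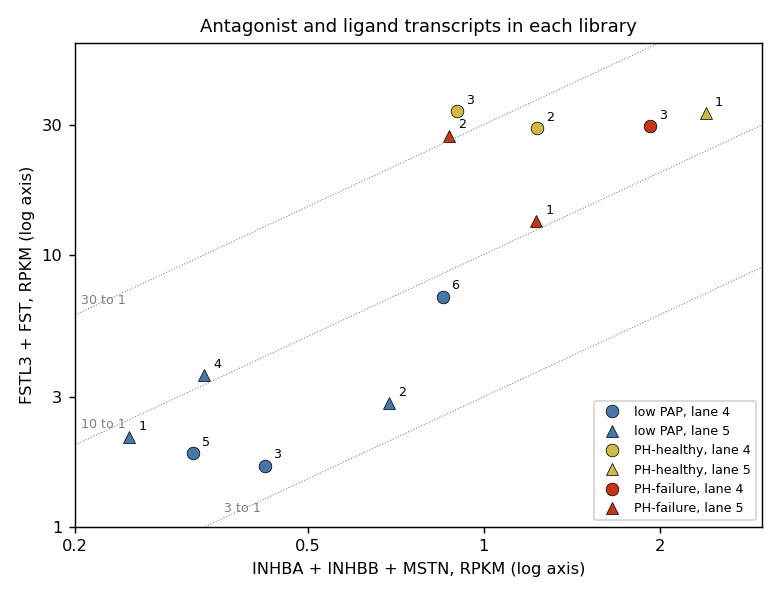
Summed RPKM of the antagonists FSTL3 and FST (vertical log axis) against that of the ligand genes INHBA, INHBB and MSTN (horizontal log axis), 1 point per library with its replicate number, colour for the group and shape for the lane; dotted lines mark fixed ratios. The 6 PH libraries lie above and to the right of the low-PAP libraries, with ratios of 10.8 to 37.4 against 3.98 to 10.8.

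Among the receptors, ACVR1B (ENSBTAG00000013555, chromosome 5, 28038531 to 28070153), the type I receptor ALK4 through which activins and myostatin signal, passed the test in both comparisons with low PAP. It ranged in low PAP from 0.523 RPKM through a median of 0.979 to 2.20 RPKM, the highest again in replicate 6. PH-healthy replicates 1, 2 and 3 had 2.45, 2.92 and 2.34 RPKM, all above low PAP, and PH-failure replicates had 1.75, 2.51 and 5.54 RPKM, of which the first lay within the low-PAP range. The mean was 1.14 ± 0.612 in low PAP (SD, n = 6), 2.57 ± 0.308 in PH-healthy (n = 3) and 3.27 ± 2.00 RPKM in PH-failure (n = 3).

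ACVR1B rose by 0.94 ± 0.26 on the log2 scale in PH-failure (limma adjusted p = 0.0188). Leaving out PH-failure replicate 3 ended this call (adjusted p = 0.104), as did quantile normalization (0.0671). In PH-healthy it rose by 0.78 ± 0.26 (limma adjusted p = 0.0360), a call lost without low-PAP replicate 1, 3, 4 or 5 or any 1 PH-healthy library (adjusted p 0.0568 to 0.115), and under quantile normalization (0.126), median-ratio scaling (0.0524), no filter (0.0579) and the replicate block (0.0592). Within series 56 ACVR1B was at 1.10, 2.45 (1 library) and 2.13 RPKM in low PAP, PH-healthy and PH-failure. Within series 55 it was at 1.18, 2.63 and 5.54 RPKM (the last from 1 library).

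ACVR1 (ENSBTAG00000011909, chromosome 2, 39287888 to 39361498), the type I receptor ALK2 that serves mainly bone morphogenetic proteins, showed no such difference. It was 10.8 ± 2.18 RPKM in low PAP (SD, n = 6), 9.61 ± 0.973 in PH-healthy (n = 3) and 10.7 ± 0.960 in PH-failure (n = 3), with all groups overlapping. The log2 difference from low PAP was -0.003 in PH-failure (limma adjusted p = 0.989) and -0.14 in PH-healthy (adjusted p = 0.460). The median log2 difference of all genes was 0.21 and 0.18, and scalings that remove this shift gave ACVR1 a lower value in PH-healthy. It was -0.36 by quantile normalization (adjusted p = 0.0308), -0.35 by median-ratio scaling (0.0345) and -0.36 by limma-voom on recovered reads with the filter (0.0433). Limma-voom without the filter also gave -0.36, which did not pass the test (adjusted p = 0.0539). The ratio of ACVR1 to ACVR1B in RPKM, free of scaling between libraries, was 6.33 to 16.6 in low PAP, 3.63 to 3.94 in PH-healthy and 2.10 to 6.13 in PH-failure, with no overlap of either PH group with low PAP. For PH-failure this rests on 6.13 in replicate 1, from 44 ACVR1B reads, against 6.33 in low-PAP replicate 6. The share of gene pairs whose ratio does not overlap was not counted, and the ratio was not tested.

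The type II receptors, which bind the ligand first, were led by ACVR2A (ENSBTAG00000018114, chromosome 2, 48381790 to 48476764). It was 3.12 ± 0.432 RPKM in low PAP (SD, n = 6), 3.50 ± 0.418 in PH-healthy (n = 3) and 3.77 ± 0.287 in PH-failure (n = 3), and the groups overlapped. Neither difference from low PAP passed the test, at 0.22 on the log2 scale (interval -0.03 to 0.47, limma adjusted p = 0.155) and 0.13 (adjusted p = 0.396), and quantile normalization turned both to -0.12 and -0.19. ACVR2B (ENSBTAG00000018105, chromosome 22, 11864296 to 11894086) had 3 to 19 reads per library and 0.140 ± 0.0617, 0.275 ± 0.0416 and 0.290 ± 0.0921 RPKM in the 3 groups. Its PH-healthy values, 0.252, 0.323 and 0.250 RPKM, lay just above the low-PAP maximum of 0.243, and the test on recovered reads gave 0.85 ± 0.40 for both PH groups (limma-voom adjusted p = 0.137 in PH-failure and 0.130 in PH-healthy). On the RPKM scale without the filter, ACVR2B passed in PH-failure (0.18 ± 0.05, limma adjusted p = 0.0381) and not in PH-healthy (0.16 ± 0.05, adjusted p = 0.0505).

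Apart from FSTL3, 4 members could be called against low PAP, and FSTL1 and ACVR1B were higher in each PH group and none was lower. Of all genes tested, 33.8% passed in PH-failure (28% above and 5.79% below low PAP) and 34.7% in PH-healthy (26.6% above and 8.15% below). Against that background a count of 2 of 4 does not set the members apart. The members were chosen with earlier results of these data known. This count and those that follow, beside the shares of all genes, are therefore a description and no test of the members as a group. On recovered reads without the filter, where 12.1% and 14.2% of genes were higher, 4 of 9 members were higher in PH-failure (FST, INHBA, FSTL1 and ACVR1B) and 3 of 9 in PH-healthy (INHBA, FSTL1 and ACVR1B). Without the filter on the RPKM scale 5 of 9 members were higher in PH-failure (ACVR2B beside those 4) and 1 of 9, FSTL1, in PH-healthy, where 18.1% and 17.5% of all genes were. Quantile normalization left 1 of 4 higher in PH-failure (9.96% of all genes), and in PH-healthy 1 higher (12.5%) and 1 lower (14.3%). Median-ratio scaling also gave 1 higher and 1 lower in PH-healthy (16% of all genes higher and 16.4% lower), and limma-voom with the filter 2 higher and 1 lower (18.1% and 14.7%). The comparison of failing with non-failing hypertensive animals called 0 of 5 members; limma called 1 of all 11374 genes (0.00879%), with 308 at an unadjusted p under 0.05, and limma-voom called none. Both comparisons with low PAP share the same 6 control animals.

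**Figure D3:**
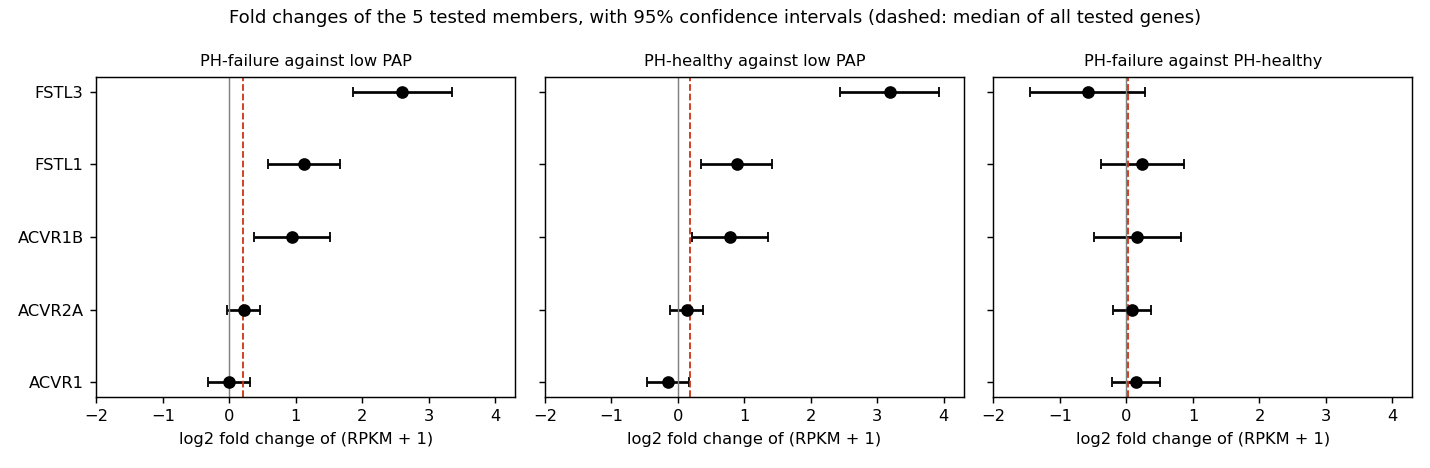
Differences between groups in log2(RPKM + 1) for the 5 tested members in the 3 comparisons, with 95% intervals from limma; the dashed line marks the median of all genes tested. FSTL3 lies at 2.60 and 3.18 against low PAP, where its interval is a description without a test, FSTL1 at 1.12 and 0.88, ACVR1B at 0.94 and 0.78, and all intervals between PH-failure and PH-healthy include 0.

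Of 60 other genes of the pathway, listed by role, 54 were in the table and 37 were tested. The list was drawn up with earlier results of these data known. Its counts beside the shares of all genes are therefore a description and no test of the pathway. In PH-failure 18 were higher and 0 lower than in low PAP, against 28% and 5.79% of all genes, with a median log2 difference of 0.50 against 0.21. In PH-healthy 17 were higher and 1 lower, against 26.6% and 8.15% of all genes, with medians of 0.41 and 0.18, and 15 genes were called in both. In PH-failure, quantile normalization left 9 higher and 0 lower (9.96% and 12.5% of all genes), median-ratio scaling 13 and 2 (13.5% and 14.8%), and limma-voom with the filter 13 and 2 (15.7% and 13.8%). In PH-healthy these gave 7 and 2 (12.5% and 14.3%), 9 and 5 (16% and 16.4%), and 13 and 5 (18.1% and 14.7%). Without PH-failure replicate 3 the PH-failure count was 7; the PH-healthy count was 5, 7 and 11 without PH-healthy replicate 1, 2 and 3, and 11 without low-PAP replicate 3. Of the 37 genes, 4 reached 1 RPKM in fewer than 3 low-PAP libraries, and 3 of these were called in each comparison, against 15 of the other 33. None was called between PH-failure and PH-healthy by limma or limma-voom, with 3 at an unadjusted p under 0.05.

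**Figure D4:**
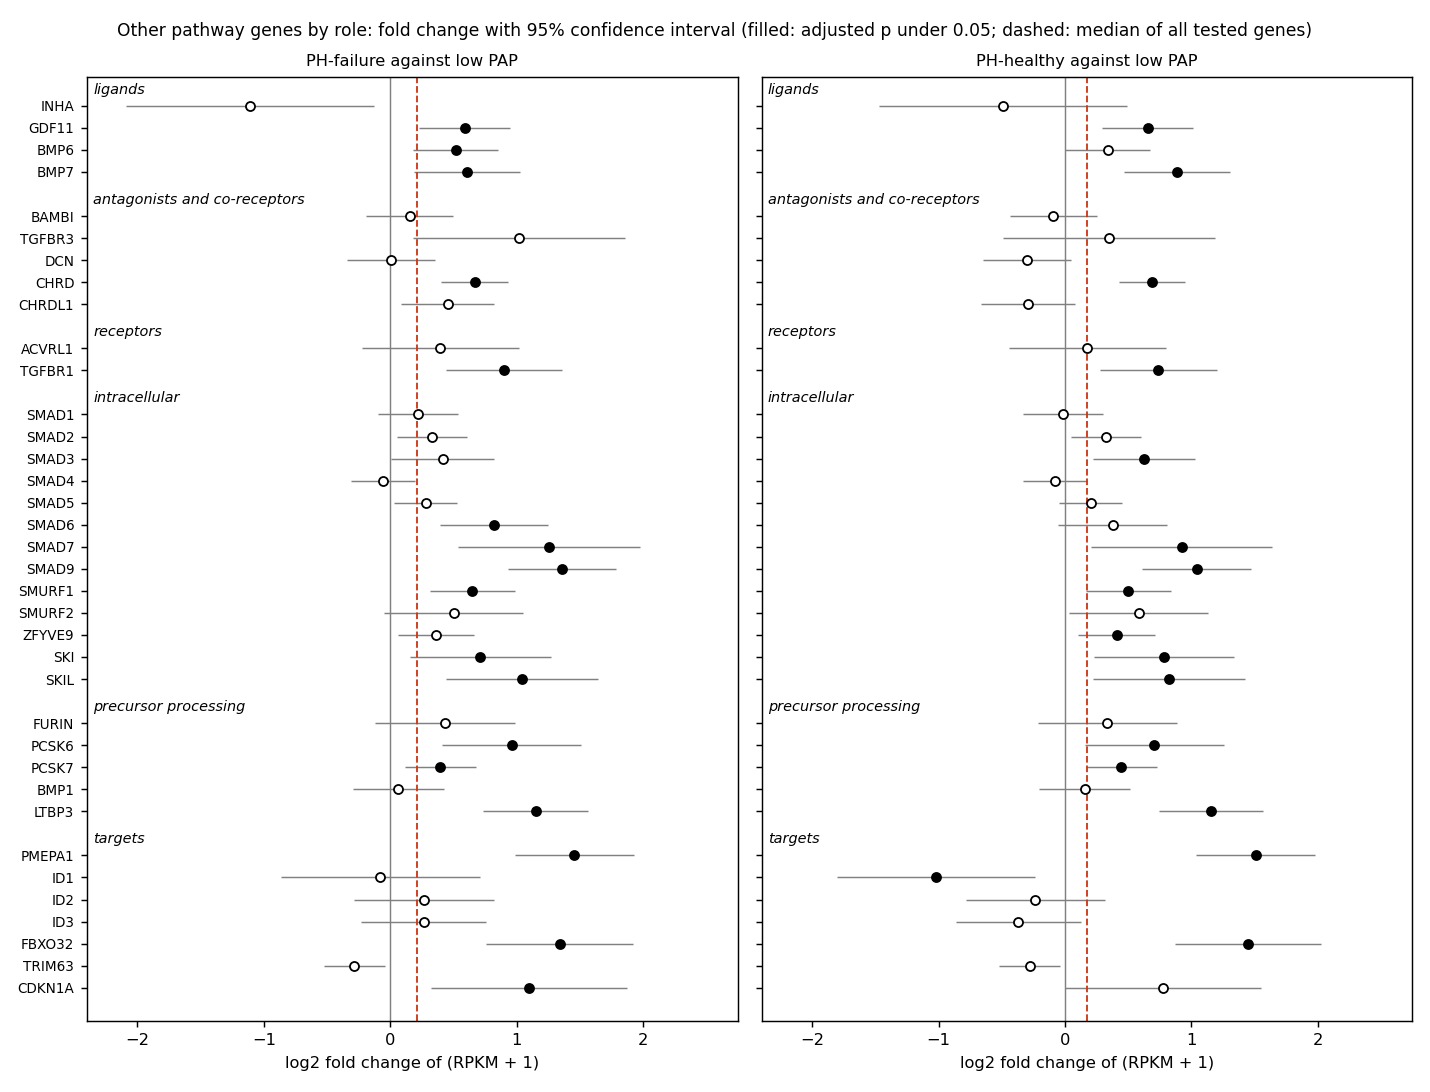
Differences from low PAP in log2(RPKM + 1) for 36 of the 37 other pathway genes tested (1 gene is not reported here), ordered by role, in PH-failure and PH-healthy with 95% intervals from limma, filled where the adjusted p is under 0.05. Most points lie to the right of 0, PMEPA1 at 1.46 and 1.51, FBXO32 at 1.34 and 1.45 and SMAD9 at 1.36 and 1.04, while ID1 lies at -1.02 in PH-healthy and INHA at -1.11 in PH-failure.

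Among ligands, 3 of 4 tested were higher in PH-failure and 2 of 4 in PH-healthy. Beside this and the later counts by role, 28% and 26.6% of all genes were higher. GDF11, CHRD and SMAD9 reached 1 RPKM in 0 of 6 low-PAP libraries and so were tested only through the PH libraries where they are high, and their p-values carry that choice. GDF11, the closest relative of myostatin, was at 0.151 ± 0.0519 RPKM in low PAP, 0.863 ± 0.513 in PH-healthy and 0.749 ± 0.303 in PH-failure (0.65 and 0.59 on the log2 scale, limma adjusted p = 0.0118 and 0.0198). BMP7, a bone morphogenetic protein, rose from 24.3 ± 5.54 to 44.8 ± 3.20 in PH-healthy and 37.7 ± 10.5 RPKM in PH-failure (adjusted p = 0.00616 and 0.0314), and BMP6 from 0.994 ± 0.312 to 1.86 ± 0.558 RPKM in PH-failure (adjusted p = 0.0247). Of the 5 antagonists and co-receptors tested, CHRD (chordin), which sequesters bone morphogenetic proteins, was higher in both (0.67 and 0.69 in PH-failure and PH-healthy, adjusted p = 0.00343 and 0.00235), from 0.219 ± 0.0888 RPKM in low PAP.

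TGFBR1, the type I receptor of TGF-beta (ALK5), rose by 0.90 ± 0.21 in PH-failure and 0.74 ± 0.21 in PH-healthy (limma adjusted p = 0.0102 and 0.0203). Of 13 intracellular genes 6 and 7 were higher. SMAD9, a bone morphogenetic protein SMAD, was at 0.211 to 0.373 RPKM in low PAP, 1.28 to 2.14 in PH-healthy and 1.52 to 4.27 RPKM in PH-failure (adjusted p = 0.00319 and 0.00133). The inhibitory SMAD7, a feedback brake on TGF-beta and activin receptors, rose by 1.25 ± 0.33 in PH-failure and 0.92 ± 0.33 in PH-healthy (adjusted p = 0.0156 and 0.0467). SMAD6, the other inhibitory SMAD, rose in PH-failure (0.82 ± 0.20, adjusted p = 0.0111), and SMURF1, a ubiquitin ligase for SMADs, rose in PH-failure (0.65 ± 0.16, adjusted p = 0.0104) and PH-healthy (0.50 ± 0.16, adjusted p = 0.0266). Of the SMADs that carry the activin signal, SMAD3 was higher in PH-healthy without overlap, by 0.63 ± 0.19 (adjusted p = 0.0232), and differed by 0.41 ± 0.19 in PH-failure (adjusted p = 0.0986). SMAD2 and SMAD4, the partner shared by all of them, did not pass the test in either comparison (adjusted p from 0.0614 to 0.725), and SMAD2 passed in 2 of 20 alternatives in each.

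Of the 5 genes for processing and storage of the precursors, 3 were higher in each comparison. PCSK6, a proprotein convertase, rose by 0.96 ± 0.25 in PH-failure and 0.71 ± 0.25 in PH-healthy (limma adjusted p = 0.0153 and 0.0458), and PCSK7, a convertase whose gene lies 101 bases from TAGLN in the table, by 0.40 ± 0.13 and 0.45 ± 0.13 (adjusted p = 0.0338 and 0.0208). Nothing in the labels or file header says whether counting used strand, so reads of PCSK7 and its neighbour cannot be told apart if their transcripts meet.

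Of 8 target genes 4 were higher in PH-failure and 3 in PH-healthy. PMEPA1, a TGF-beta target that dampens SMAD signalling, rose from 1.20 ± 0.582 RPKM in low PAP to 5.19 ± 1.41 in PH-healthy and 4.90 ± 0.806 in PH-failure (limma adjusted p = 0.000781 and 0.00145). FBXO32 (atrogin-1), a muscle ubiquitin ligase, rose from 14.7 ± 5.44 to 39.9 ± 2.80 in PH-healthy and 38.7 ± 15.2 RPKM in PH-failure (adjusted p = 0.00285 and 0.00510). TRIM63 (MuRF1), the other muscle ubiquitin ligase listed, was at 131.9 ± 14.3 RPKM in low PAP against 108.1 ± 7.496 in PH-healthy and 108.0 ± 9.79 in PH-failure, lower without overlap in both. The share of all genes lower without overlap against low PAP was not counted. TRIM63 did not pass the test (adjusted p = 0.0702 and 0.0678) but was called lower by median-ratio scaling (0.00934 and 0.00898) and limma-voom with the filter (0.00970 and 0.00846). It was called in 3 of 20 alternatives and not called in 17 in each comparison. CDKN1A, the cell cycle inhibitor p21, rose in PH-failure by 1.10 ± 0.36 (adjusted p = 0.0334). ID1, a target of bone morphogenetic protein SMADs, was lower in PH-healthy, at 12.6 ± 3.21 against 27.7 ± 10.5 RPKM (adjusted p = 0.0453), and was 28.1 ± 18.8 RPKM in PH-failure.

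Over 20 alternatives, the calls of PMEPA1, FBXO32 and SMAD9 in both PH groups and of BMP7 in PH-healthy held in all 20, and those of CHRD in the 17 that tested it. SMAD9 and CHRD pass the RPKM filter only through the PH libraries where they are high. Their calls in alternatives that keep this filter carry the same choice. In PH-failure the call was lost in 1 (SMAD7), 2 (TGFBR1, SMURF1, SMAD6 and PCSK6 each), 3 of 17 (GDF11), 6 (BMP6), 10 (BMP7), 11 (CDKN1A) and 12 (PCSK7) of them. In PH-healthy it was lost in 1 of 17 (GDF11), 4 (TGFBR1), 6 (PCSK7), 7 (SMURF1 and SMAD3 each), 9 (ID1) and 15 (SMAD7 and PCSK6 each). Quantile normalization, for example, gave PCSK7 an adjusted p of 0.641 in PH-failure and SMURF1 one of 0.266 in PH-healthy.

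By library, leaving out PH-failure replicate 3 ended the PH-failure calls of SMAD7 (adjusted p = 0.0829), TGFBR1, SMURF1, SMAD6, PCSK6, GDF11, BMP6, CDKN1A and PCSK7 (0.0509 to 0.188 over all libraries whose loss ended a PH-failure call). Leaving out low-PAP replicate 1, 3 or 4 ended those of BMP7, CDKN1A and PCSK7, low-PAP replicate 5 those of CDKN1A and PCSK7, PH-failure replicate 1 those of BMP7 and PCSK7, and PH-failure replicate 2 those of BMP7, PCSK6 and PCSK7. In PH-healthy, leaving out any PH-healthy library ended the calls of SMAD7, PCSK6 and ID1, replicate 1 or 2 those of TGFBR1 and PCSK7, and replicate 1 or 3 those of SMURF1 and SMAD3. Dropping PH-failure replicate 2 also ended the PH-healthy calls of SMAD7 and PCSK6. So did dropping the low-PAP animal numbered 1, 3, 4 or 5 for both genes, number 2 for SMAD7, number 2, 3, 4 or 6 for ID1, and number 3 for SMURF1 (0.0526 to 0.169 over all libraries whose loss ended a PH-healthy call). GDF11 and CHRD left the tested set without PH-healthy replicate 1 or 2 or PH-failure replicate 2.

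For the 3 members with the widest range of group means, the genes of most similar profile were listed by the root mean square difference over the 12 libraries, each gene centred on its own mean in log2(RPKM + 1), among 10813 genes. For FSTL3 these were XIRP2, an actin-binding muscle protein (0.289), ATP13A3, a polyamine transporter (0.418), SYNPO2L, a Z-disc protein (0.425), LTBP2, a matrix protein (0.429), and APCDD1, a Wnt inhibitor (0.438), against a root mean square of 1.54 for FSTL3 itself about its mean. In all of these PH-failure replicate 1 was the lowest PH library and low-PAP replicate 6 the highest low-PAP library, for ATP13A3 by little. The genes were picked for likeness to FSTL3 over these same libraries, so sharing its low and high libraries is largely built in. XIRP2 averaged 13.7, 120.0 and 100.2 RPKM in low PAP, PH-healthy and PH-failure, and LTBP2 2.86, 23.1 and 17.7 RPKM. For FSTL1 they were PEA15 (0.150), EFHD2, ANXA2, CKAP4 and A2M, and for ACVR1B GHR, the growth hormone receptor (0.135), SMIM14, WWC2, FAM129B and EPS8. The points share libraries and depth, and no test was made.

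**Figure D5:**
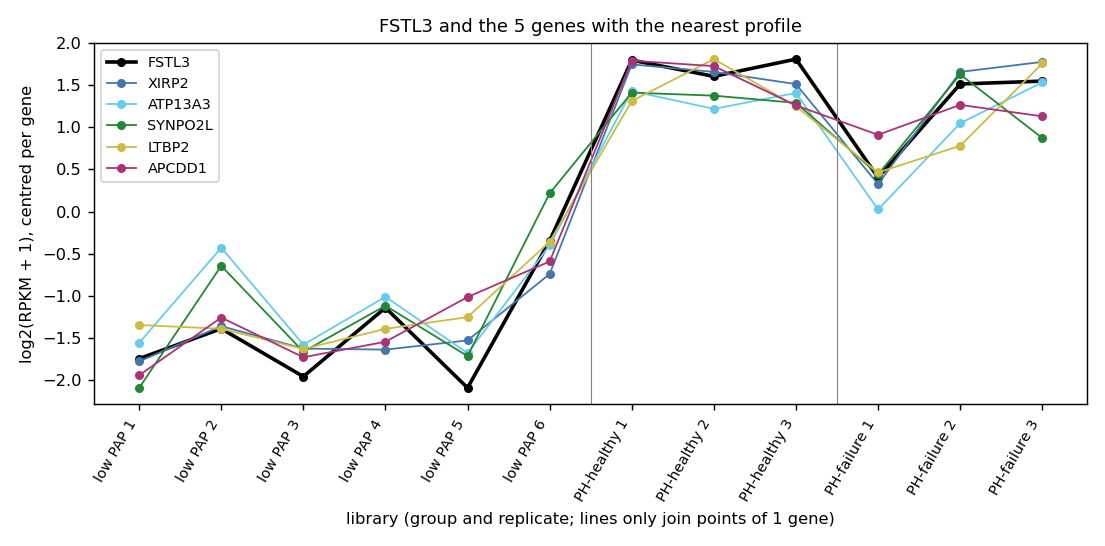
Log2(RPKM + 1) in each of the 12 libraries, centred on each gene's mean over the 12, for FSTL3 (bold line) and the 5 genes of most similar profile. FSTL3 runs from -2.09 in low-PAP replicate 5 to 1.81 in PH-healthy replicate 3 and is at 0.40 in PH-failure replicate 1, where all 6 lines dip below the other PH libraries.

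The authors' deposited table compares high with low PAP without splitting the high group. In the authors' deposited table FSTL3 has a fold of 8.56 (false discovery rate 8.84e-09) and FSTL1 one of 1.87 (0.0134). These values come from the same libraries. The rise of FSTL3 was known when the members were chosen, so its value there is no independent test. The other 8 members have a false discovery rate of 0.682 (ACVR1B, fold 2.39) to 1 in the authors' deposited table.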

How the data were processed

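Right ventricle RNA was extracted with Trizol and made into standard Illumina libraries, per the labels' protocols. The authors deposited 1 table with RPKM for 24616 genes in 12 libraries, normalized to exon length and mapped reads, per the file headers. The deposited table also holds the authors' signed fold between high and low PAP as a score with no values between -1 and 1, and, per the file headers, a p-value and a corrected one. Aligner, counting, strand and genome build: not given in the sources used here. Positions are those of the table. The 10 members, the 60 other pathway genes and the marker lists were chosen with earlier results of these data known.

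Genes reaching 1 RPKM in 3 or more libraries (11374 of 17284 above 0) were fitted as log2(RPKM + 1) with limma 3.58.1 (R 4.3.3, statmod 1.5.0), with a variance trend and robust moderation, in 1 model of 3 groups without covariates. Benjamini-Hochberg adjustment ran over all genes tested, with a threshold of 0.05. FSTL3 was left out of the counts against low PAP. Each library is another animal. Reads were recovered from the RPKM steps, whole within 0.02 reads for all 11374 genes tested, and fitted by limma-voom as an alternative. Intervals and floors from reads cover counting error only. Named genes were all 10 members, the up to 4 called pathway genes of smallest p in each role, and the 5 nearest profiles of 3 members. Some genes that this rule names are not reported here. Other genes named were chosen after their values were seen. Alternatives were quantile and median-ratio scaling, a pseudocount of 0.1, no filter, limma-voom, library series as a term, the replicate number as a block and leaving out each library. The fits and the recovery were tested on simulated data. No sequences of these genes were used here. Tables were read with pandas 2.3.3 and numpy 2.4.6 in Python 3.11.15, and plots drawn with matplotlib 3.10.9.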

Additional observations from a re-analysis of the deposited data

How the results depend on the processing

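No result changed direction while called. The count of members called against low PAP in either direction, 2 in each comparison, became 1 (quantile normalization), 5 (no filter, which tests 9 members) and 4 (limma-voom on recovered reads without the filter) in PH-failure, and 1 (no filter) and 0 (replicate block) in PH-healthy. Leaving out 1 library gave 1 to 2 in PH-failure and 0 to 2 in PH-healthy. The count of other pathway genes, 18 in each comparison, became 9 (quantile normalization) and 9 (replicate block) in PH-failure, and 9 and 8 in PH-healthy; leaving out 1 library gave 7 to 24 and 5 to 22. The causes were not tested. All counts between PH-failure and PH-healthy stayed at 0. FSTL3 differed from low PAP by 2.36 to 3.00 in PH-failure and 3.00 to 3.61 in PH-healthy over all alternatives. Same-numbered animals of different groups did not deviate together (correlations -0.26 to 0.19), so the block pairs animals that share only a number. Members with few reads (13 to 250 over 12 libraries) are limited by counting.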

Other observations

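INHA, the inhibin alpha subunit that joins an activin beta subunit to form inhibin, an activin antagonist best known from the gonads, was the most abundant RNA among the tested ligand genes, at a mean of 62.5 RPKM over the 12 libraries. It lay at 66.7 to 86.8 RPKM in low PAP and at 50.7 to 54.9 in PH-healthy, below all low-PAP values, for which no share of all genes was counted. PH-failure replicates 1, 2 and 3 had 84.8, 48.6 and 9.06 RPKM. Its log2 difference from low PAP was -1.11 ± 0.46 in PH-failure (limma adjusted p = 0.0737) and -0.49 ± 0.46 in PH-healthy (adjusted p = 0.416). In PH-failure it was called lower with median-ratio scaling (adjusted p = 0.0480), limma-voom with the filter (0.0479), library series as a term (0.0497) and without PH-failure replicate 1 (0.00727), and in PH-healthy without PH-failure replicate 3 (0.0221). The other alternatives, 16 of 20 in PH-failure and 19 of 20 in PH-healthy, did not call INHA. OBSL1, the gene nearest to INHA in the table at 1017 bases, averaged 9.96 RPKM. PH-failure replicate 3 was thus lowest for INHA and highest of its group for 8 of the 10 members, and it had the lowest cardiac muscle marker sum (37184 RPKM) and the highest macrophage sum (87.3 RPKM) of all 12.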
